A study of Mus musculus with 16 samples.

Results

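The 9 genes described here code for the core of the Hedgehog pathway, the ligands Shh, Ihh and Dhh, the receptor Ptch1, the signal transducer Smo, the inhibitor Hhip and the transcription factors Gli1, Gli2 and Gli3. They were chosen by name, not by any measured value, though with earlier results of these data known. They are 9 of the 22367 protein-coding genes to which peaks were assigned. For each gene, peaks of histone H3 trimethylated on lysine 4, 27 or 9 (H3K4me3, H3K27me3 and H3K9me3) were collected where they lay within 3000 bp of an annotated transcript start (a start window) or over the gene body. A peak is a stretch of genome in which chromatin immunoprecipitation followed by sequencing (ChIP-seq) gave more reads than the matched IgG control.

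Chromatin was prepared with micrococcal nuclease from cells sorted from the skin of wild-type CD1 x FVB mice. Early anagen hair follicle stem cells (EA-HFSCs) were CD34+ / α6-integrin+ bulge cells taken from postnatal day (PD) 22 to 25, when they divide, and late catagen stem cells (LC-HFSCs) were the same sort at PD38 to PD44, in quiescence. The α6-integrin+ cells without CD34, sorted at the same ages, formed the non-HFSCs of each age (non-EA-HFSCs, then non-LC-HFSCs), a mixture that the study describes as mostly epidermis and lower outer root sheath. Tissue of 15 to 20 mice went into a preparation, the labels give the mice as male while the study's methods state that both sexes entered most of its analyses, and no group carried a transgene or received a treatment. The authors pooled the reads of independent experiments before they called peaks, which leaves 1 list for each of the 4 populations and 3 marks, 12 lists in all. Every statement between populations is therefore a comparison of single lists without a replicate check, no test was made, and the lists do not hold the read numbers behind a peak. By the study's own account the stem cell libraries of late catagen were sequenced more deeply than those of early anagen. The same account states that reads were too few for H3K27me3 and H3K9me3 peak calling to saturate, which was the reason for pooling. In sorted populations, fewer cells carrying a mark and less mark in each cell cannot be told apart.

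Hedgehog ligands are secreted proteins. Without ligand, Ptch1 holds Smo inactive, and when ligand binds Ptch1, Smo is released and the Gli proteins are converted from repressors into activators. Ptch1, Hhip and Gli1 are themselves common targets of the pathway, so that they limit or reinforce the signal, and in skin Shh made by the hair follicle epithelium is known for driving follicle growth in anagen. H3K4me3 is usually found at starts of genes that are active or poised, H3K27me3 is laid down by the Polycomb system at silent developmental genes, and H3K9me3 is known from silent heterochromatin.

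The lists differed in length, which bears on every absence given below. H3K4me3 lists held 14718 to 24498 peaks, H3K27me3 lists 1909 to 25534 and H3K9me3 lists 1414 to 42277, and the shortest list of every mark was that of LC-HFSCs. The median width of an H3K4me3 peak was 2279 bp in EA-HFSCs, 2308 bp in LC-HFSCs, 1671 bp in non-EA-HFSCs and 1794 bp in non-LC-HFSCs. For H3K27me3 the medians were 1381, 2979, 2612 and 1469 bp in the same order. Widths compared between lists below were not corrected for this. The lowest scores, where a score is the negative log10 p of the peak caller times 10, were 50 for H3K4me3 and 40 for the other marks, 40.1 in the H3K9me3 list of LC-HFSCs. Of 8 bulge markers, all 8 had H3K4me3 at a start in both stem cell lists and 7 in both non-stem cell lists, the exception being Cd34, the gene of the sorted marker. H3K27me3 lay at 5 of the 8 in both non-stem cell lists and at 0 in both stem cell lists. None of 4 leukocyte markers (Ptprc, Cd3e, Cd207 and Cd74) had H3K4me3 at a start in any list. Of 4 fibroblast and dermal papilla markers, 4 had it in both early anagen lists and 3 in both late catagen lists. Of 4 melanocyte markers, 2 had it in each list but that of non-LC-HFSCs, where 1 had. The part of such cells in the results below was not tested.

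The sequence at several starts is shown first, because the presence and place of H3K4me3 at the ligand genes differed from what is seen at the other members. The stretches below are the 200 bases upstream of the annotated gene start of Ihh, which had no H3K4me3 peak in any list, of Smo, whose peak covered the start in every list, and of Shh. The middle 200 bases of the intervals that H3K4me3 covered in all 4 lists at Shh and Dhh follow, both of which lay inside the gene and not at its start. Sequences are those of mm9, written 5′ to 3′ on the strand given, with CpG dinucleotides in capitals.
Ihh upstream, chr1:74998247-74998446, minus strand: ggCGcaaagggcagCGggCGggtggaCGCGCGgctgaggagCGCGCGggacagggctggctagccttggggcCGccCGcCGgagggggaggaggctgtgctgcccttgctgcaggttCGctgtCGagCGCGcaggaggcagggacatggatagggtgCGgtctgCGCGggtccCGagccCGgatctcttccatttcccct
Smo upstream, chr6:29685494-29685693, plus strand: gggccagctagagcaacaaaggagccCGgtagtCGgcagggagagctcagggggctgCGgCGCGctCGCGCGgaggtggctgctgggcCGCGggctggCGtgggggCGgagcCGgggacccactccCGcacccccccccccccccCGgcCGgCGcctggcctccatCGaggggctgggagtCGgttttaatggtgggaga
Shh upstream, chr5:28793642-28793841, minus strand: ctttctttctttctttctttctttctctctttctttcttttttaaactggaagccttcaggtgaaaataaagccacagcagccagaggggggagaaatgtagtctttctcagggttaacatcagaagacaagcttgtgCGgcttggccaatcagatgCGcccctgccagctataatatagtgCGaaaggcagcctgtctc
Shh H3K4me3 core, chr5:28790886-28791085, minus strand: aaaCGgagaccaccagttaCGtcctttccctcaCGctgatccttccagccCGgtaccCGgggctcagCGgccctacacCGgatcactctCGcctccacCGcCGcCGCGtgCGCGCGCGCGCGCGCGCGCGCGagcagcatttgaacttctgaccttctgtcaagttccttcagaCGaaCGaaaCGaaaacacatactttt
Dhh H3K4me3 core, chr15:98725202-98725401, minus strand: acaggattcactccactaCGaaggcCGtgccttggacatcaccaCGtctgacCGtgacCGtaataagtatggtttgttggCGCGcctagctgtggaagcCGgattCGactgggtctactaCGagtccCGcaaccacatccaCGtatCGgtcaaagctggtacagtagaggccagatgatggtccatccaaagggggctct
The stretch upstream of Ihh held 21 CpG dinucleotides and that of Smo 19, whereas the stretch upstream of Shh held 3. In the 500 bp to either side of the start, the ratio of observed to expected CpG was 0.774 at Ihh, above that of 75.8% of all genes, 0.651 at Smo and 0.554 at Shh, beside a median of 0.549 over all genes. So Ihh, the member without H3K4me3, had one of the more CpG-rich starts of the 9 genes, below Ptch1 (0.851) and Gli3 (0.935) and above the remaining members (0.480 to 0.676). At Shh the 848 bp that H3K4me3 covered in all 4 lists had a CpG ratio of 0.857, and its middle 200 bases held 26 CpG dinucleotides, many of them in a run of CG repeats. At Dhh the ratio was 0.692 over the 2710 bp covered in all 4 lists and 0.480 around the annotated start. The H3K4me3 of both genes thus lay on sequence with a higher CpG ratio than the annotated start, and no annotated gene start lay inside either interval.

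In all, 93 peaks lay at the 9 genes, 71 of them at a start and 22 over a gene body alone. H3K4me3 gave 45 of these peaks, H3K27me3 29 and H3K9me3 19. The members fell into a few patterns. Shh carried H3K4me3 inside a wide H3K27me3 domain in every population, Ihh carried H3K27me3 without H3K4me3 in every population, and Hhip carried both marks at its start in every population. Dhh, Ptch1 and Gli2 had H3K4me3 everywhere and H3K27me3 in non-HFSCs but not in HFSCs, Gli1 had H3K27me3 in non-EA-HFSCs alone, and Smo and Gli3 had H3K4me3 and no H3K27me3 at a start in any list.

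**Figure D1:**
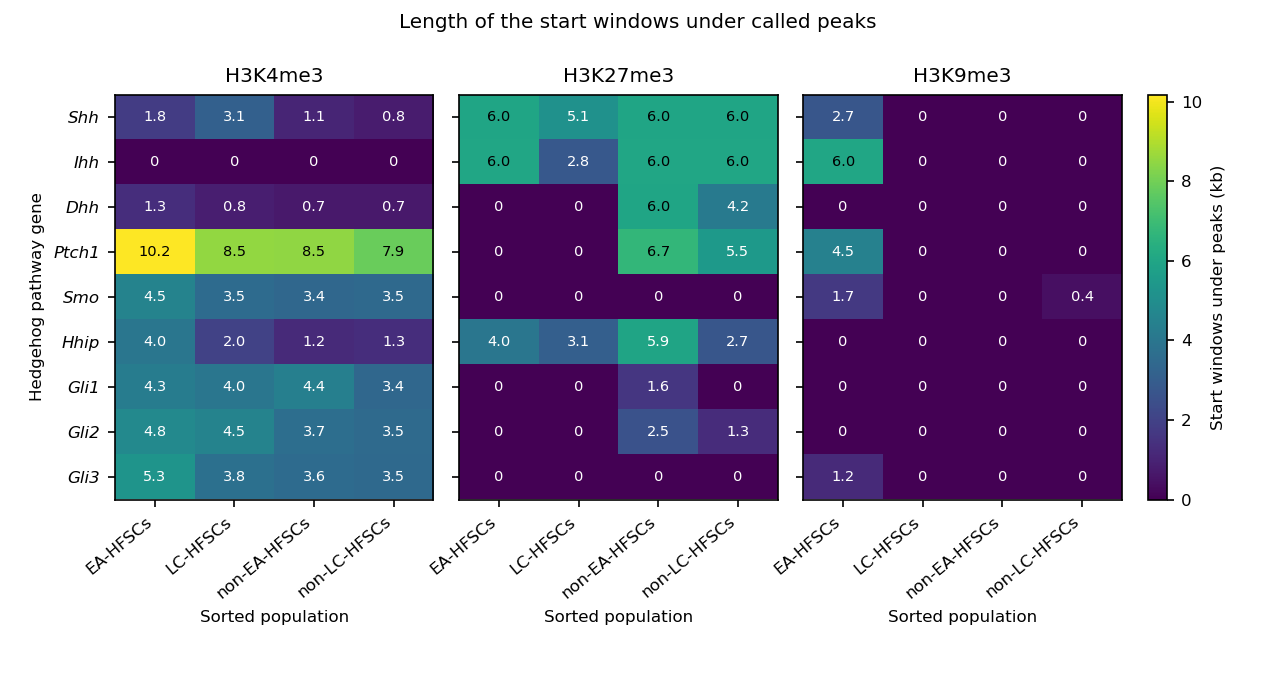
Length of the start windows under called peaks, in kb, for each Hedgehog pathway gene (rows) and sorted population (columns), with 1 panel for each mark. Windows of genes with several distant starts are longer (19197 bp in all at Ptch1, 12282 bp at Gli2, 12002 bp at Hhip and 6001 to 6746 bp at the others). H3K4me3 lies at 8 genes in every population, H3K27me3 at 3 genes in HFSCs and 7 or 6 in non-HFSCs, and H3K9me3 almost wholly in EA-HFSCs.

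H3K4me3 was found at a start of 8 of the 9 genes, all but Ihh, in each of the 4 lists. Over all protein-coding genes the share with such a peak was 62.4% in EA-HFSCs, 55.9% in LC-HFSCs, 61.7% in non-EA-HFSCs and 58.8% in non-LC-HFSCs. A peak in all 4 lists was found at these 8 members and at 54.9% of all genes, and a peak in none of the lists at Ihh and at 35.9% of all genes. All 8 members with H3K4me3 in early anagen had it in late catagen too, where 89.3% of all genes with a peak in EA-HFSCs also had one in LC-HFSCs and 94.6% of those in non-EA-HFSCs also had one in non-LC-HFSCs. Having the mark at both early anagen and late catagen was thus close to the rule for all genes with it in early anagen.

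H3K27me3 separated the members more than H3K4me3 did. It lay at a start of 3 members in EA-HFSCs (Shh, Ihh and Hhip), where the share over all genes was 14.0%, and at the same 3 in LC-HFSCs, where the share was 3.73%. In non-EA-HFSCs it lay at 7 members, with Dhh, Ptch1, Gli1 and Gli2 added, beside 16.8% of all genes. In non-LC-HFSCs it lay at 6 members, the same genes but Gli1, beside 12.9% of all genes. The share of members was therefore above that of all genes in each list, and in HFSCs it rested on 3 genes.

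Shh, Ihh and Hhip had H3K27me3 in all 4 populations, which held for 3.56% of all genes. At a score of at least 50, Ihh had the mark in 3 lists. Where a peak had to cover a start itself, Ihh and Hhip each had it in 3 lists. Smo and Gli3 had it in none, as did 80.1% of all genes. Dhh, Ptch1 and Gli2 had it in both non-HFSC lists and in neither HFSC list, a pattern of 2.22% of all genes. The H3K27me3 list of EA-HFSCs was the longest of the mark, with 25534 peaks against 17488 in non-EA-HFSCs. Its peaks had a lower median width (1381 against 2612 bp) and covered less of the genome (58.2 against 68.3 Mb). They lay at a start of 3139 genes, against 3760 genes in non-EA-HFSCs. In late catagen LC-HFSCs had 1909 peaks against 15273 in non-LC-HFSCs. How far the make-up of the lists bears on these absences was not tested.

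From EA-HFSCs to LC-HFSCs all 3 members with H3K27me3 kept it, while 26.1% of all genes with the mark in EA-HFSCs had it in LC-HFSCs. In non-HFSCs 6 of 7 kept it, beside 71.2% of all genes. These counts depend on which peaks are admitted. At a score of at least 50, 2 members had H3K27me3 in LC-HFSCs, Ihh being lost, and 2 kept it from EA-HFSCs. The share over all genes was not computed for that setting. Among peaks with a score of at least 100, 1 member (Shh) had H3K27me3 in LC-HFSCs, beside 1.19% of all genes, and 2 (Shh and Ihh) had it in EA-HFSCs, beside 9.93%. In non-EA-HFSCs 6 members had it, all but Gli1 of those given before, beside 12.4% of all genes, and in non-LC-HFSCs 5 had it, Gli2 being the one not present, beside 9.12%. When 1909 top-scoring peaks were taken from each of the 4 lists, 2 members remained in EA-HFSCs (Shh and Ihh), beside 5.07% of all genes, the 3 members of the whole list in LC-HFSCs, beside 3.73%, and 3 in each non-HFSC list (Shh, Ihh and Dhh), beside 6.15% in non-EA-HFSCs and 5.21% in non-LC-HFSCs. The difference between HFSCs and non-HFSCs at Dhh was thus present at a score of at least 100 and among equal numbers of top-scoring peaks. At Ptch1 and Gli2 it was not present among an equal number of top-scoring peaks.

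H3K9me3 was found at a start of 5 members in EA-HFSCs (Shh, Ihh, Ptch1, Smo and Gli3), where 47.9% of all genes had such a peak. The share of members was close to that of all genes. It was found at 0 members in LC-HFSCs, beside 0.505% of all genes, at 0 in non-EA-HFSCs, beside 4.14%, and at 1 (Smo) in non-LC-HFSCs, beside 14.1%. No member had it in all 4 lists, which held for 0.335% of all genes. The mark in EA-HFSCs alone was found at Shh, Ihh, Ptch1 and Gli3, a pattern of 35.6% of all genes. None of the 5 members kept it from EA-HFSCs to LC-HFSCs, beside 0.765% of all genes that did, and between the non-HFSC lists, where 44.3% of genes kept it, no member had a peak to keep. The EA-HFSC list held 42277 H3K9me3 peaks and the LC-HFSC list 1414.

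**Figure D2:**
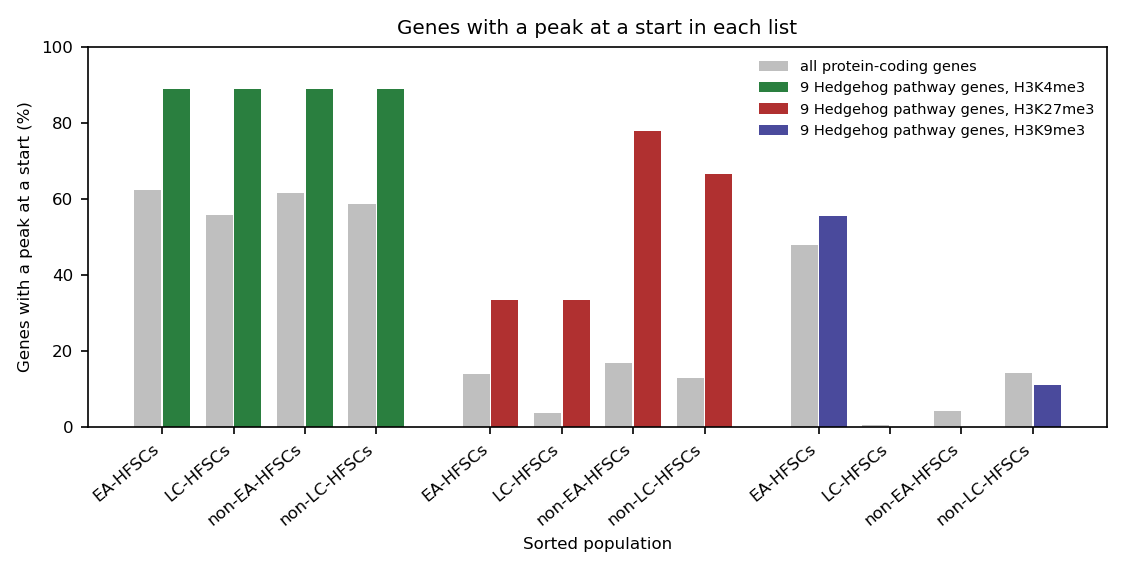
Percent of genes with a peak at a start in each population, for the 9 Hedgehog pathway genes (coloured bars) and for all 22367 protein-coding genes (grey bars), with the 4 populations of each mark side by side. The widest gaps between the coloured and grey bars are those of H3K27me3 in the 2 lists of non-HFSCs, while for H3K9me3 the bars of EA-HFSCs are close in height.

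Shh and Ihh had the widest H3K27me3 peaks of the members in every list. Shh, the ligand of the growing hair follicle, lies on the minus strand at chr5:28783355-28793641 of mm9. Its H3K27me3 peak was 14569 bp wide in EA-HFSCs, 11116 bp in LC-HFSCs, 18484 bp in non-EA-HFSCs and 11971 bp in non-LC-HFSCs, where another peak of 2965 bp followed after a short gap. The mark covered 100% of the gene body in both early anagen lists, 87.2% in LC-HFSCs and 98.7% in non-LC-HFSCs, so that the whole gene body was under the mark or nearly so at both stages sampled. In LC-HFSCs this peak, at chr5:28784672-28795787, ranked 50 by score and 60 by width among the 1909 peaks of the list. At Shh the 11068 bp covered in all 4 lists ran from position -2146 to 8921, counted from the annotated start in the direction of transcription.

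Shh also carried H3K4me3 in every list, and not centred on its start. The peak was 2389 bp wide in EA-HFSCs, 3210 bp in LC-HFSCs, 1148 bp in non-EA-HFSCs and 848 bp in non-LC-HFSCs, and LC-HFSCs were the population with the widest. In LC-HFSCs it ran from position -128 to 3081 and covered the start. In the other lists it began 1208, 1933 and 2232 bp inside the gene (EA-HFSCs first, then the non-HFSCs of early and late stage), so that it counted at the start through its reach into the window from inside the gene. Among peaks that cover a start themselves, or lie within 1000 bp of one, H3K4me3 at Shh was found in 1 list in place of 4. In every population 100% of the H3K4me3 length lay under the H3K27me3 peak. Scores were low, 331 in EA-HFSCs, 61.4 in LC-HFSCs, 103 in non-EA-HFSCs and 65.2 in non-LC-HFSCs, and 2 lists had the peak among scores of at least 100. The start of Gm17493, a gene that is not protein-coding, lies 727 bp from that of Shh, and marks of the pair cannot be told apart near the start.

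H3K9me3 at Shh was called as 6 separate peaks in EA-HFSCs, 720 to 2682 bp wide, 3 of them in the start window. All 8593 bp of them lay under H3K27me3. In non-LC-HFSCs 1 H3K9me3 peak of 870 bp lay over the gene body, and LC-HFSCs and non-EA-HFSCs had none. The H3K9me3 peaks in the start window had scores of 43.2, 71.8 and 59.2, so that none was present at a score of at least 100.

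Ihh, best known as the ligand of growing cartilage, lies on the minus strand at chr1:74991891-74998246. It had no H3K4me3 peak at its starts or over its body in any of the 4 lists. Its H3K27me3 peak was 17043 bp wide in EA-HFSCs, 5784 bp in LC-HFSCs, 21288 bp in non-EA-HFSCs and 11829 bp in non-LC-HFSCs. In 3 lists the peak covered both annotated starts and 100% of the gene body, reaching 9081 bp upstream in EA-HFSCs and 9085 bp in non-EA-HFSCs. In LC-HFSCs it began at position 238, past both starts, covered 91.0% of the body and had a score of 41.9, close to the threshold of the list. H3K9me3 lay over the start as 1 peak of 8406 bp in EA-HFSCs, at chr1:74993846-75002251, which ranked 78 by width among 42277 peaks and lay wholly under H3K27me3. Ihh was thus the member with the widest single H3K9me3 peak, and no other population had the mark there.

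Dhh, a ligand known from testis and peripheral nerve, lies on the minus strand at chr15:98723462-98728971. H3K4me3 began 1670 bp downstream of the annotated start in EA-HFSCs, 2154 bp in LC-HFSCs, 2315 bp in non-EA-HFSCs and 2306 bp in non-LC-HFSCs, and its widths were 3874, 3083, 2826 and 2719 bp in the same order. In each list it covered 49.3 to 69.7% of the gene body and reached into the start window by no more than 1331 bp, without covering the start. Within 1000 bp of the start Dhh had H3K4me3 in 0 lists. H3K27me3 lay across the start in non-EA-HFSCs, from position -3055 to 4592 (7648 bp), and in non-LC-HFSCs, from -1150 to 4046 (5197 bp). In these lists 80.6% and 64.0% of the H3K4me3 length lay on H3K27me3, while neither HFSC list had an H3K27me3 peak at the gene. H3K9me3 was found at Dhh in no list.

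**Figure D3:**
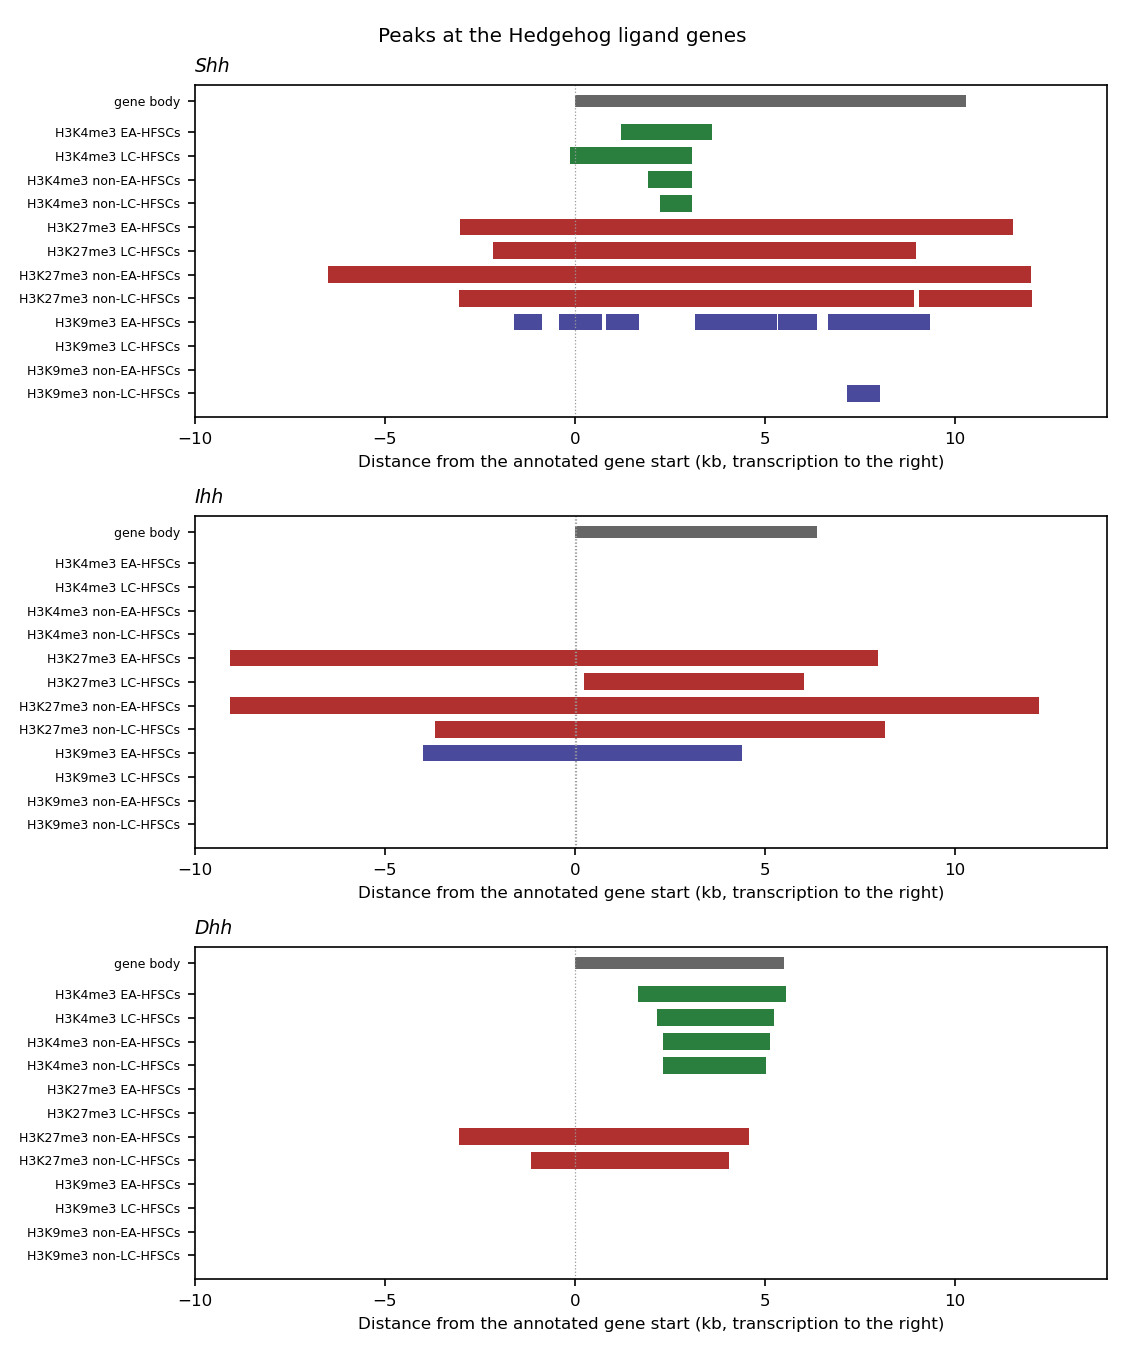
Peaks at Shh, Ihh and Dhh, drawn to scale against the distance from the annotated gene start in kb, with transcription to the right. The grey bar is the gene body, dotted lines are annotated transcript starts, and each row is 1 list (H3K4me3 green, H3K27me3 red, H3K9me3 blue). H3K27me3 spans Shh in all 4 populations and Dhh in non-HFSCs alone, H3K4me3 is missing at Ihh, and H3K4me3 at Dhh lies downstream of the start in every population.

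Among all members, Ptch1 had the widest H3K4me3 peak in every list but that of LC-HFSCs, where Gli2 did. Ptch1 codes for the Hedgehog receptor and lies on the minus strand at chr13:63610261-63674474, with annotated starts 7646, 8840 and 58849 bp downstream of the most upstream one. A wide H3K4me3 peak lay over the starts at 7646 and 8840 bp, 8761 bp wide in EA-HFSCs, 6796 bp in LC-HFSCs, 7111 bp in non-EA-HFSCs and 6711 bp in non-LC-HFSCs. It ranked 172, 170, 162 and 108 by width in these lists. In LC-HFSCs this peak, at chr13:63663405-63670200, had the score rank 6 among 14718 peaks. A narrower peak lay over the most upstream start, 2981 bp wide in EA-HFSCs, 2097 bp in LC-HFSCs, 2093 bp in non-EA-HFSCs and 1711 bp in non-LC-HFSCs. Both peaks were found in all 4 populations and both were widest in EA-HFSCs, which also had another peak of 2529 bp in an intron. The start at 58849 bp had none.

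H3K27me3 at Ptch1 was found in non-HFSCs and lay at the upstream start. In non-EA-HFSCs a peak of 7115 bp ran from position -1709 to 5405, with a peak of 2371 bp next to it upstream. In non-LC-HFSCs 3 peaks of 3229, 2891 and 1969 bp lay between -4317 and 4305. The mark thus covered the narrow H3K4me3 peak and the edge of the wide one, 38.9% of the H3K4me3 length in non-EA-HFSCs and 23.0% in non-LC-HFSCs, and ended before the downstream pair of starts. With a score of at least 100 it stayed in both lists. H3K9me3 in EA-HFSCs took a place of its own, 3 peaks of 1255, 742 and 2668 bp between positions 4451 and 10109, all on the wide H3K4me3 peak, which counted 4665 bp under both marks.

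The only matches of a Gli motif under H3K4me3 at the members were at Ptch1, and they are printed here for their place under these peaks. The motif searched was GACCACCCA, the 9-letter core that Gli proteins are known to bind, on both strands of the start windows and gene bodies. It occurred 12 times in all, 3 times at Ptch1, 6 times at Gli2 and 1 time each at Hhip, Gli1 and Gli3. The matches are in capitals, with 10 bases of mm9 to either side.
Ptch1 match, chr13:63674763-63674791, minus strand: tggcgcggcaGACCACCCAcgccgagggc
Ptch1 match, chr13:63670583-63670611, minus strand: cctcagccctGACCACCCAagtcgagcag
Ptch1 match, chr13:63667733-63667761, plus strand: aaagtagagaGACCACCCAggtaggcaac
The first match lay from position -307 to -299, under H3K4me3 in all 4 lists and under H3K27me3 in both non-HFSC lists. The second, from 3873 to 3881, lay under H3K4me3 in EA-HFSCs and under H3K27me3 in both non-HFSC lists. The third, from 6723 to 6731, lay under H3K4me3 in all 4 lists and under H3K9me3 in EA-HFSCs. A window of 6001 bp centred on the gene start held a match at 1 member and at 1109 of 22367 genes (4.96%). A match is a description of the sequence and not a binding site.

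Smo, the membrane protein that Ptch1 holds in check, lies on the plus strand at chr6:29685694-29711365 and had the plainest pattern of the receptor group. H3K4me3 covered its start as 1 peak in every list, 4543 bp wide in EA-HFSCs, 3550 bp in LC-HFSCs, 3386 bp in non-EA-HFSCs and 3467 bp in non-LC-HFSCs. EA-HFSCs had the widest peak, and the other 3 lists had peaks of similar width. In its own list the peak was wider than 90.2% of peaks in EA-HFSCs, 85.7% in LC-HFSCs, 88.3% in non-EA-HFSCs and 91.6% in non-LC-HFSCs. No H3K27me3 peak lay at Smo in any list. H3K9me3 covered the start with 1683 bp in EA-HFSCs (score 78.9) and with 420 bp in non-LC-HFSCs (score 50.8), wholly under H3K4me3, and neither peak had a score of at least 100.

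Hhip codes for a protein of the cell surface that binds Hedgehog ligands and lowers signalling. It lies on the minus strand at chr8:82490014-82581905, with another annotated start 67657 bp downstream that had no peak in any list. H3K4me3 covered the upstream start with 4253 bp in EA-HFSCs, 1991 bp in LC-HFSCs, 1225 bp in non-EA-HFSCs and 1349 bp in non-LC-HFSCs. The peak of EA-HFSCs was the widest and those of non-HFSCs were the narrowest. H3K27me3 at this start had a peak of 3025 bp in EA-HFSCs, 3437 bp in LC-HFSCs, 9040 bp in non-EA-HFSCs and 2708 bp in non-LC-HFSCs, with smaller peaks beside it in every list but that of LC-HFSCs. Of the H3K4me3 length, 73.0%, 81.8%, 100% and 73.8% lay on H3K27me3 in the same order. The H3K27me3 peaks at the start in HFSCs had scores of 54.6 to 69.6, so that at a score of at least 100 the mark was present in 2 lists, those of non-HFSCs. Among equal numbers of top-scoring peaks it was present in 1 list, that of LC-HFSCs. This setting keeps the LC-HFSC list of 1909 peaks whole, so the Hhip peak there could not be lost. H3K9me3 at Hhip was 1 peak of 419 bp in the gene body in EA-HFSCs.

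**Figure D4:**
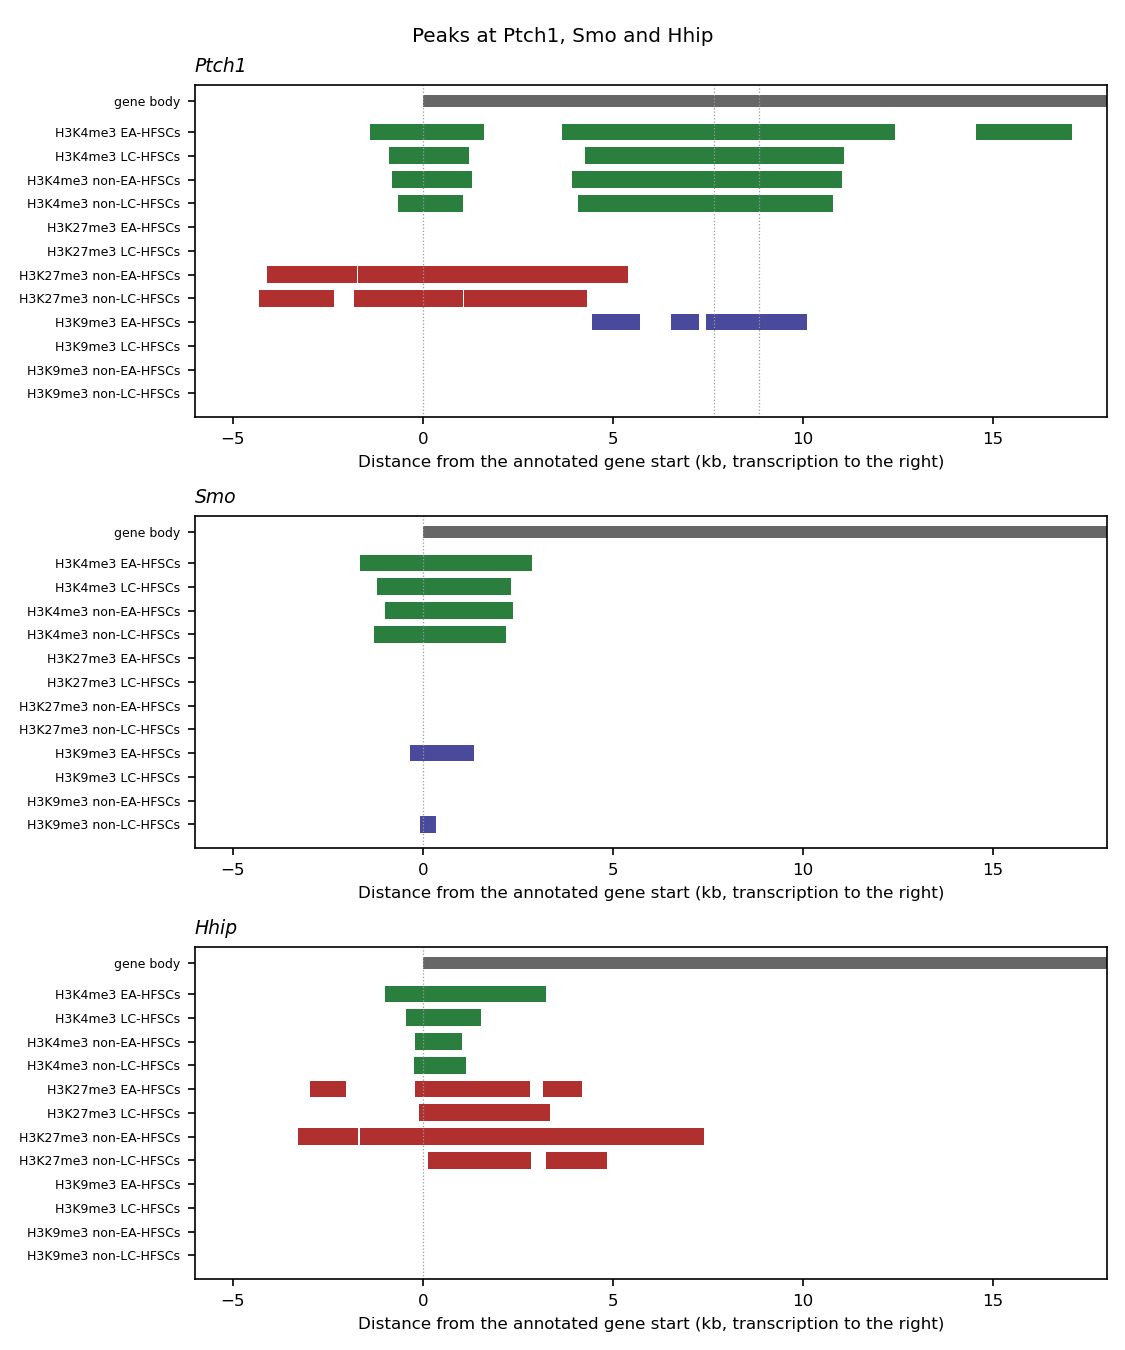
Peaks at Ptch1, Smo and Hhip within 6 kb upstream to 18 kb downstream of the annotated gene start, drawn as for the ligands (gene body grey, transcript starts dotted, H3K4me3 green, H3K27me3 red, H3K9me3 blue). The H3K4me3 peak of Ptch1 over its inner starts is 6711 to 8761 bp wide in the 4 populations, H3K27me3 is found at Ptch1 in non-HFSCs alone, and Smo has no H3K27me3.

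The Gli genes code for the zinc finger transcription factors at the end of the pathway, and all 3 had H3K4me3 across the upstream starts in every population. Gli1, which mostly acts as an activator, lies on the minus strand at chr10:126766945-126778645. Its H3K4me3 peak was 4271 bp wide in EA-HFSCs, 3992 bp in LC-HFSCs and 4406 bp in non-EA-HFSCs, and in non-LC-HFSCs it was called as a pair of 2579 and 832 bp with a short gap. The covered length was thus similar in the lists, from 3411 to 4406 bp. H3K27me3 was found in non-EA-HFSCs alone, as 1 peak of 1617 bp from position -108 to 1508, wholly on H3K4me3. Its score was 96.0, so that it was not present at a score of at least 100. Gli1 had no H3K9me3 at its starts or over its body.

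Gli2, the main activator of the response in many tissues, lies on the minus strand at chr1:120730709-120950196. In EA-HFSCs and LC-HFSCs 1 H3K4me3 peak of 7716 and 7448 bp ran from the start into the first part of the gene. In the non-HFSCs of early anagen and of late catagen the same stretch held a start peak of 3669 and 3514 bp and a separate one of 1584 and 1084 bp, ending at positions 6133 and 6171, beside 6220 and 6186 in HFSCs. The stretch between positions 2549 and 4550 was therefore under H3K4me3 in both HFSC lists and in neither non-HFSC list. In LC-HFSCs the peak ranked 116 by width among 14718, and in EA-HFSCs it ranked 280 among 21482. H3K27me3 was found in non-HFSCs, 2544 bp wide in non-EA-HFSCs (score 114) and 1306 bp in non-LC-HFSCs (score 63.9), wholly on the H3K4me3 start peak. The second of these did not cover a start and was not present at a score of at least 100. EA-HFSCs had 2 further H3K4me3 peaks in introns, of 1886 and 1570 bp, and H3K9me3 was found only in the gene body, as 708 bp in EA-HFSCs and 445 bp in non-LC-HFSCs.

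Gli3, known chiefly as a repressor in the absence of ligand, lies on the plus strand at chr13:15555068-15821859. H3K4me3 covered its 4 annotated starts in every list, with 5767 bp in EA-HFSCs, 3751 bp in LC-HFSCs, 3576 bp in non-EA-HFSCs and 3497 bp in non-LC-HFSCs. The EA-HFSC peak was the widest, and the other 3 were of similar width. EA-HFSCs also had 3 H3K4me3 peaks in introns, of 1084, 1005 and 1007 bp. No H3K27me3 peak was found at Gli3 in any list. In EA-HFSCs H3K9me3 lay over 1205 bp from position 704 to 1908 (score 108), wholly on H3K4me3, and over 456 and 578 bp in introns.

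**Figure D5:**
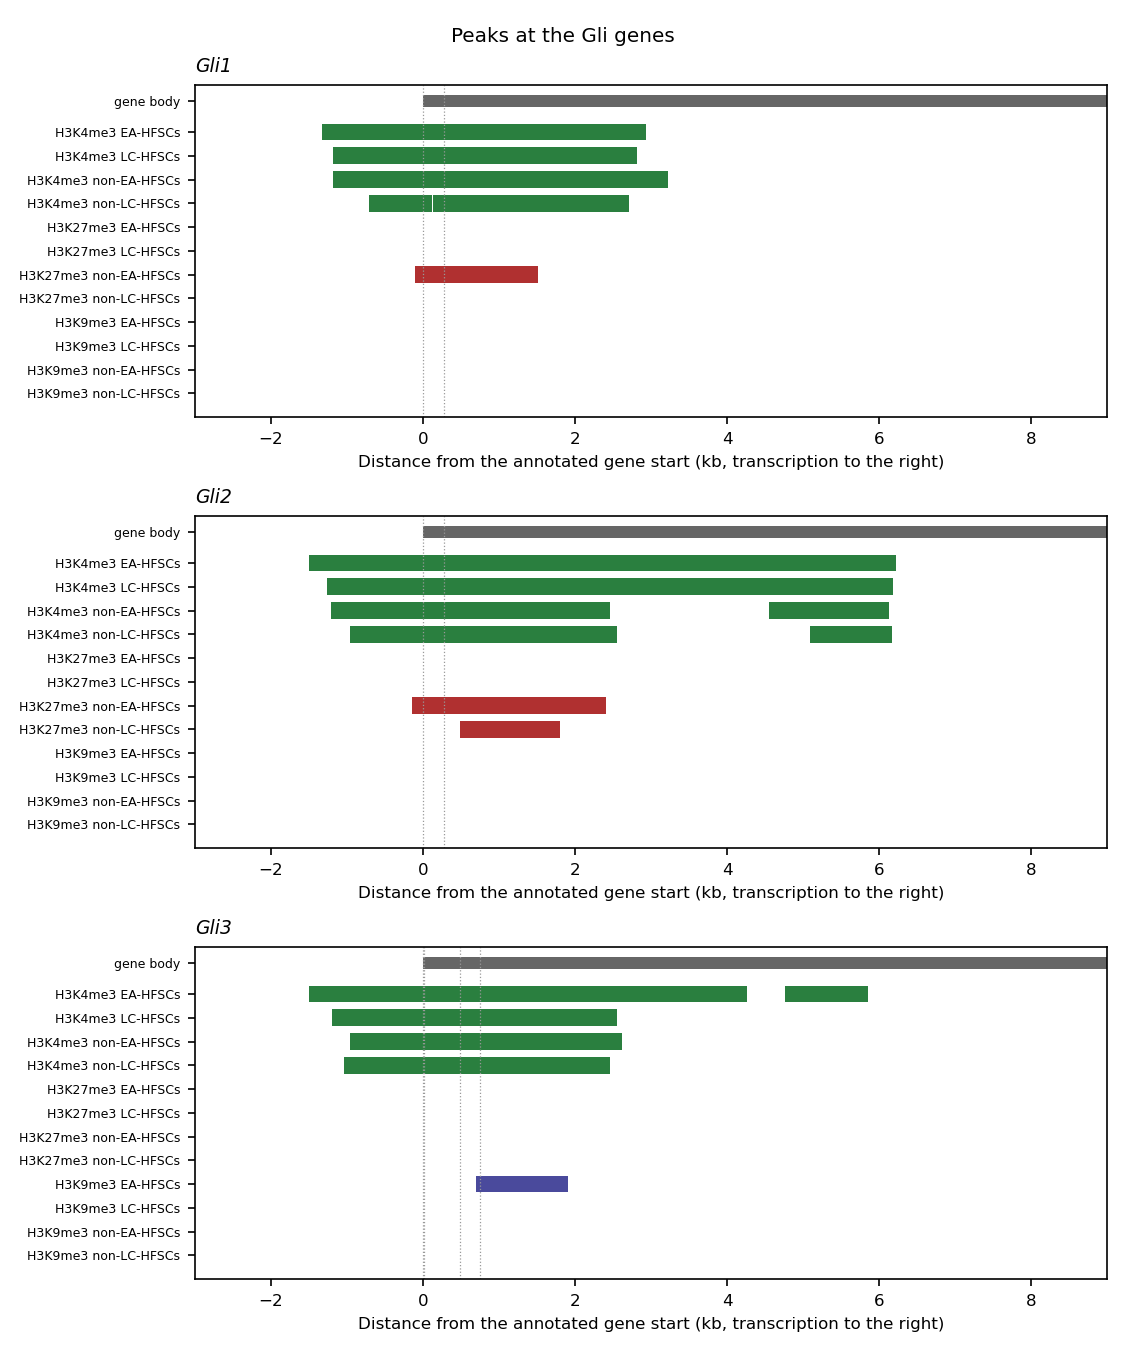
Peaks at Gli1, Gli2 and Gli3 within 3 kb upstream to 9 kb downstream of the annotated gene start, drawn as for the ligands (gene body grey, transcript starts dotted, H3K4me3 green, H3K27me3 red, H3K9me3 blue). At Gli2 the H3K4me3 peak is 7716 and 7448 bp wide in HFSCs and split in non-HFSCs, where H3K27me3 is present, while Gli3 has no H3K27me3.

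H3K4me3 and H3K27me3 at starts of 1 gene in the same population were found at Shh and Hhip in EA-HFSCs, beside 8.89% of all genes, and at the same pair in LC-HFSCs, beside 1.30%. In non-EA-HFSCs 6 members had both (Shh, Dhh, Ptch1, Hhip, Gli1 and Gli2), beside 10.8% of all genes, and in non-LC-HFSCs 5 had both (all of these but Gli1), beside 6.60%. Bulk lists do not show whether both marks lay on the same chromosomes or in different cells of the mixture.

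Over the gene bodies, the 9 genes together had 45.2 kb under H3K4me3 in EA-HFSCs, 29.6 kb in LC-HFSCs, 25.6 kb in non-EA-HFSCs and 23.4 kb in non-LC-HFSCs. These lengths were 6.44, 4.21, 3.65 and 3.34% of their bodies, beside 3.69, 2.52, 3.20 and 2.48% over all protein-coding gene bodies. H3K27me3 covered 20.5 kb in EA-HFSCs, 18.1 kb in LC-HFSCs, 42.7 kb in non-EA-HFSCs and 30.5 kb in non-LC-HFSCs. These lengths were 2.92, 2.58, 6.08 and 4.34% of the members' bodies, beside 2.27, 0.331, 2.76 and 1.50% over all gene bodies. Between the HFSC stages the length within the members' bodies differed little, whereas the share over all gene bodies went from 2.27% in EA-HFSCs to 0.331% in LC-HFSCs. These lengths leave out the parts of peaks beyond the gene ends. Whole H3K27me3 peaks at Shh, Ihh and Hhip covered 14569, 17043 and 4996 bp in EA-HFSCs. In LC-HFSCs they covered 11116, 5784 and 3437 bp, less at each gene. Among peaks with a score of at least 50, the body lengths were 20.5 kb in EA-HFSCs and 12.3 kb in LC-HFSCs. Among peaks with a score of at least 100, 8.97 kb remained under H3K27me3 in LC-HFSCs, all of it at Shh. H3K9me3 covered 21.2 kb in EA-HFSCs, 0 kb in LC-HFSCs and non-EA-HFSCs, and 1.66 kb in non-LC-HFSCs. This was 3.03, 0, 0 and 0.237% of the members' bodies in the order of lists used before, beside 1.85, 0.0922, 0.741 and 0.491% over all gene bodies. Of the 8 H3K4me3 peaks that lay over a body alone, 6 were in EA-HFSCs.

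Of 32 further genes of the pathway, 31 were found in the annotation, Disp1 being the one not matched. H3K4me3 lay at a start of 30 of them in EA-HFSCs, 27 in LC-HFSCs, 30 in non-EA-HFSCs and 29 in non-LC-HFSCs. The shares over all genes were 62.4, 55.9, 61.7 and 58.8%. In the same order H3K27me3 lay at 4, 3, 7 and 6 of them, beside 14.0, 3.73, 16.8 and 12.9% of all genes, and H3K9me3 at 22, 0, 0 and 6, beside 47.9, 0.505, 4.14 and 14.1%. The 14 genes that pass the signal on to the Gli proteins, such as Sufu and Kif7, all had H3K4me3 in every list and H3K27me3 in none. Over all genes, 54.9% had H3K4me3 in all 4 lists and 80.1% had H3K27me3 in none. H3K27me3 was found at 2, 1, 3 and 2 of the 5 matched genes of ligand secretion and spread in the same order of lists, at 1, 1, 2 and 2 of 6 surface receptors and co-receptors, and at 1, 1, 2 and 2 of 6 Gli targets, where Ccnd1, Ccnd2, Bcl2 and Foxm1 had it in no list. Mycn, a growth-promoting transcription factor, had H3K27me3 in both non-HFSC lists and in neither HFSC list. Foxf1, a Gli target of the gut wall, and Lrp2, a large endocytic receptor, had H3K27me3 in all 4 lists, with peaks at Foxf1 up to 32852 bp wide.

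Scube1 and Scube3, secreted proteins that help ligand release, had H3K27me3 in 3 lists each, Scube1 in all but LC-HFSCs and Scube3 in all but EA-HFSCs. At Scube3 the peak of LC-HFSCs lay far inside the gene, near another annotated start. Disp2 had no H3K4me3 in any list and H3K27me3 in both early anagen lists, of 1354 bp in EA-HFSCs and 2151 bp in non-EA-HFSCs. Scube1 had H3K4me3 in both early anagen lists and in neither late catagen list. Gpr161, a receptor of the cilium that restrains the pathway, had H3K4me3 in 3 lists, that of LC-HFSCs being the exception, and no H3K27me3.

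Genes most like each member were looked for among all protein-coding genes, by the length under peaks within 3000 bp of the annotated gene start. The measure was the mean absolute difference over the 12 lists. Other transcript starts did not count here, so the wide H3K4me3 peak of Ptch1 over its inner starts was left out. Nearest to Shh were Tmem163 (275 bp) and Gpr83 (281 bp), and nearest to Ihh were Six6 (131 bp) and Hoxa13 (196 bp). For Dhh they were C1qtnf3 (139 bp) and Ehd3 (273 bp), for Ptch1 Ncald (197 bp) and Slc13a5 (201 bp), for Smo Rpl12 (35.6 bp) and Lrsam1 (40.2 bp), and for Hhip Bmper (432 bp) and Fign (458 bp). The Gli genes had Vsnl1 (112 bp) and Nck2 (137 bp) beside Gli1, Grip1 (153 bp) and Camk2n1 (174 bp) beside Gli2, and Leng1 (30.1 bp) and Usp46 (30.2 bp) beside Gli3. The median difference from all genes ran from 1028 bp for Gli3 to 2628 bp for Shh. Hhip was thus the member with the least close match and Smo and Gli3 those with the closest, and no shared role is read from this likeness.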

How the data were processed

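H3K4me3, H3K27me3 and H3K9me3 were measured by ChIP-seq in 4 sorted populations. The labels list 16 samples, 4 of them IgG controls that the authors set against the marks and for which no list was used here. The authors trimmed single-end reads with Trimmomatic 0.22 and cut them to 1 common length, used Bowtie2 for alignment to mm9, pooled replicates and called peaks with MACS against IgG of the same population. The deposited score of a peak equals 10 times its negative log10 p-value, and it was used only to rank or filter peaks. Peak starts and ends are the other deposited columns, given here 1-based. A library of other depth or background yields another number of peaks at the same threshold, for which no correction was possible from the lists.

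Genes, transcript starts and sequence came from the GENCODE vM1 annotation and genome of NCBIM37, which is the assembly mm9, and all peaks on the 21 chromosomes ended within the chromosome lengths. A peak was assigned to a gene by an overlap of at least 1 bp with a start window of 3000 bp to either side or with the gene body. Overlaps were computed with Python 3.11.15 and numpy 2.4.6. On simulated peaks, 1500 of 1500 genes with a simulated peak at a start were found among 22367 genes. Groups followed the labels, and no statistical test was made, since there was 1 list per condition. Shares over all genes are for comparison only.

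The members and gene lists were chosen with earlier results of these data known. All 9 members are named. Of the other pathway genes, those with H3K27me3 at a start in at least 1 population and those without H3K4me3 in all 4 are named, with Sufu and Kif7 as examples chosen after their values were seen, and 1 gene under this rule is not reported here. Foxf1 was matched through its older symbol Foxf1a. Alternatives were score minimums of 50 and 100, equal numbers of top-scoring peaks per mark, windows of 1000 and 5000 bp, the gene start alone, setting aside peaks on another coding start and, added after the data were seen, peaks that cover a start. mRNA levels were not analysed here.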

Additional observations from a re-analysis of the deposited data

Results flagged for a closer look

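For 5 results the difference between early anagen and late catagen had one sign in HFSCs and the other in non-HFSCs. Each value is the length of the start windows under peaks, and each difference is late catagen minus early anagen. A group is 1 list, so these differences were not tested. For H3K4me3 at Shh the difference was 1336 bp in HFSCs (1793 and 3129 bp in early anagen and late catagen) and -299 bp in non-HFSCs (1068 and 769 bp). For H3K4me3 at Dhh the difference was -484 bp in HFSCs (1331 and 847 bp) and 9 bp in non-HFSCs (686 and 695 bp). At Smo it was -993 bp in HFSCs (4543 and 3550 bp) and 81 bp in non-HFSCs (3386 and 3467 bp). At Hhip it was -2014 bp in HFSCs (4005 and 1991 bp) and 124 bp in non-HFSCs (1225 and 1349 bp). H3K9me3 at Smo differed by -1683 bp in HFSCs (1683 and 0 bp) and by 420 bp in non-HFSCs (0 and 420 bp). Shh was the one of these H3K4me3 results with the longer cover in LC-HFSCs, and it rested on a peak with a score of 61.4 in a list whose lowest score was 50.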

How the results depend on the processing

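The counts of members with H3K4me3 at a start were within 1.5 times the reported ones under every alternative run, in all 4 lists. With a score of at least 50, 1 of 30 counts and lengths moved by more, the gene body length under H3K9me3 in non-LC-HFSCs, which became 0.348 kb. Within that limit, members with H3K27me3 in LC-HFSCs became 2, as did those that kept it from EA-HFSCs. The gene body length under H3K27me3 in LC-HFSCs became 12.3 kb. With a score of at least 100, members with H3K27me3 in LC-HFSCs became 1, as did those that kept it from EA-HFSCs, members with H3K9me3 became 3 in EA-HFSCs and 0 in non-LC-HFSCs, and gene body lengths became 8.97 kb for H3K27me3 in LC-HFSCs, 10.4 kb for H3K9me3 in EA-HFSCs and 0 kb in non-LC-HFSCs. With equal numbers of top-scoring peaks, members with H3K27me3 became 3 in non-EA-HFSCs and 3 in non-LC-HFSCs, members that kept it between these became 3, members with H3K9me3 became 1 in EA-HFSCs and 0 in non-LC-HFSCs, and gene body lengths became 21.2 kb and 19.3 kb for H3K27me3 in non-HFSCs of early anagen and late catagen and 4.40 kb and 0 kb for H3K9me3 in EA-HFSCs and non-LC-HFSCs. Both settings use fewer peaks by construction, except that equal numbers keep whole the shortest list of each mark, that of LC-HFSCs. With a window of 5000 bp, members with H3K9me3 in non-LC-HFSCs became 2. No paired analysis was possible because replicates were pooled and each condition has 1 list, and for the same reason no replicate could be left out. The lists hold no read numbers, so how far depth and background set the absence of a single peak was not tested.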
